A study of Mus musculus with 28 samples.

Results

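Addition of trans-resveratrol (RSV) to an ethanol (EtOH) liquid diet was examined in the liver of wild-type mice by comparing the 4 arrays of the ethanol plus trans-resveratrol diet with the 4 arrays of the ethanol diet, 8 of the 28 arrays of the series. Both groups were female C3H/HeN mice, 5 weeks old at the start, that were acclimated for 1 week on CE-2 chow. Both then received Lieber's isocaloric diet with ethanol, freely for 1 week and as 12 g a day for 4 weeks, so the comparison holds ethanol in common and differs by the polyphenol, taken at about 50 mg per kg body weight a day. The other 8 wild-type arrays, of the ethanol-free control diet and of the ethanol plus ellagic acid (EA) diet, entered the same fit and are given as reference levels. CAR-deficient mice, which lack the constitutive androstane receptor, a nuclear receptor that switches on drug-metabolizing enzymes, had 3 arrays a diet and share no array with the wild-type mice. Each array carried the RNA of 1 mouse, and the arrays were chosen by the diet and genotype in their titles.

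Trans-resveratrol is a stilbene polyphenol of grapes, and an ethanol liquid diet is a standard way to make the rodent liver accumulate fat. The liver adjusts transcription to feeding through the clock, nuclear receptors and coactivators, and to protein load through chaperones, the proteasome and the enzymes that charge transfer RNA. The labels give no circadian series: all mice were killed at the same morning hour, so a clock gene here is a level at 1 time of day.

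Expression was measured with Affymetrix whole-genome arrays and is given as the authors' log2 values from Distribution Free Weighting (DFW), which rescales each probe set, so the differences below are in DFW units and cannot be read as exact fold changes. All 45037 probe sets that are not Affymetrix controls were compared. Of these, 38404 (85.3%) varied by an SD no larger than 0.01 across all 16 wild-type arrays and are called compressed, and the other 6633 are called uncompressed. Differences were tested by limma over all probe sets, with Benjamini and Hochberg adjustment and a threshold of 0.05, and again over the uncompressed probe sets alone. The 9 hepatocyte markers measured had mean levels of 6.41 to 14.5, on a scale on which all values lay between 5.12 and 14.7. No marker of hepatocytes, Kupffer cells, sinusoidal endothelium, stellate cells, cholangiocytes, neutrophils, lymphocytes, red cells, pancreas or fat passed the test between the 2 diets over all probe sets, the lowest adjusted p being 0.0784. Many of these markers were compressed and could hardly show a shift. Uncompressed were 5 of 9 hepatocyte, 8 of 12 Kupffer cell, 4 of 10 endothelial and 5 of 10 stellate markers. For lymphocytes, red cells, pancreas and fat 1 marker each was uncompressed, and for cholangiocytes and neutrophils none. Over uncompressed probe sets alone 1 marker passed, the hepatocyte marker Cps1, which was higher with resveratrol, and the 9 hepatocyte markers summed to 113.1 to 114.6 on the ethanol arrays and 113.4 to 114.3 on the resveratrol arrays. Over the uncompressed probe sets, the ethanol array numbered 5 correlated better with the resveratrol arrays (mean r = 0.980) than with its own diet (0.973). By the same measure the ethanol array numbered 3 was nearest to resveratrol array 4. The number of arrays limits the precision.

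Resveratrol moved few probe sets past the threshold. Over all probe sets, 164 were called (0.364%), with 70 higher (0.155%) and 94 lower (0.209%) than with ethanol alone, and none had an adjusted p under 0.0101. Their adjusted p lay at 0.04 or more for 80 of them and under 0.02 for 12. Without adjustment, 6638 (14.7%) had a p under 0.05. Of the called, 55 were compressed, with differences of at most 0.0156, and are not described further. The other 109 (1.64% of the uncompressed), 43 higher (0.648%) and 66 lower (0.995%), name 94 genes, 36 higher and 58 lower. In each of the 109 the 4 resveratrol values lay apart from the 4 ethanol values, which was also true of 763 (11.5%) of all uncompressed probe sets. Quantile normalization of the arrays turned the split over all probe sets to 1217 higher and 211 lower, and over the uncompressed ones to 172 of 361 higher.

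**Figure D1:**
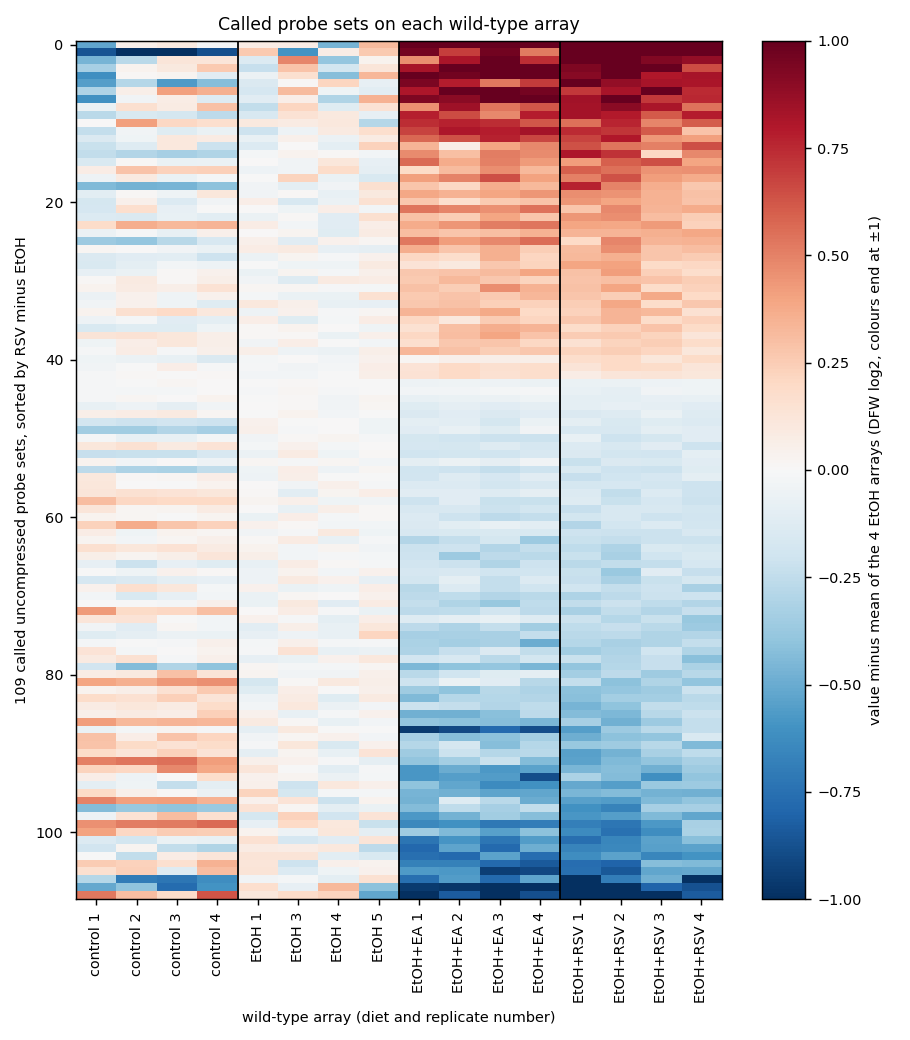
Heat map of the 109 called uncompressed probe sets (rows, sorted by the resveratrol minus ethanol difference) on the 16 wild-type arrays (columns, by diet and replicate number); colour is the value minus the mean of the 4 ethanol arrays, in DFW log2 units, and ends at ±1. The rows were chosen by this comparison, so the step between the ethanol and resveratrol columns is given by the choice; the control and ellagic acid columns are shown for reference and share the ethanol mean that was subtracted.

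Clock genes were among the strongest rises. Per3, a period protein of the repressor limb of the clock, was measured at 7.30, 7.82, 7.35 and 7.66 on the ethanol arrays and 8.46, 8.66, 8.55 and 8.18 on the resveratrol arrays. All 4 resveratrol arrays stood above all 4 ethanol arrays, with a difference of 0.93 ± 0.15 (SE, adjusted p = 0.0356). A second probe set of the gene, of lower level, differed by 0.77 ± 0.12 (SE, adjusted p = 0.0348), and the other 2 uncompressed ones by 0.72 and 0.84 without passing. Ciart, a repressor of the clock's transcription factor pair, was measured at 7.18, 7.81, 6.93 and 7.36 on the ethanol arrays and 8.55, 8.38, 8.25 and 8.20 on the resveratrol arrays. Its groups did not overlap either, with a difference of 1.02 ± 0.19 (SE, adjusted p = 0.0485). On the control diet Per3 stood at 7.55 ± 0.25 and Ciart at 7.20 ± 0.29 (SD, n = 4), beside means of 7.53 and 7.32 with ethanol alone.

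The bases before the RefSeq start site of both genes are shown because the genes rose together and each holds repeats of a short element of clock factors, in capitals. For Per3 the letters TTANGTAA, the D-box read by the PAR bZIP factors Dbp, Tef and Hlf, stand 205 and 158 bases before the start (GRCm38.p6, chr4:151044796-151044890, minus strand), and 2.06% of 32851 RefSeq promoters hold these letters on either strand in the 250 bases before their start. For Ciart the letters CACGTG, the E-box read by Clock and Arntl, stand 116, 58 and 44 bases before the start (chr3:95882247-95882364, minus strand), and 6.02% of promoters hold at least 1. Neither gene holds the element of the other in this window. The letters CACGTG also stand 146 bases before the start of Aars, a gene described below that fell. The matches are letters in a window and not measured binding.
Per3: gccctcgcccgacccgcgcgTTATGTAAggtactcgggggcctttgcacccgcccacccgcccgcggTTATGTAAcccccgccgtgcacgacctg
Ciart: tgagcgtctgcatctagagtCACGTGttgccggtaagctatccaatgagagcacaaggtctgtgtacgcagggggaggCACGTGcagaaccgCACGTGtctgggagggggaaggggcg

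The list of circadian repressors and outputs had 21 members measured, of which 2 rose and none fell over all probe sets (0.242% and 0.313% of 18193 genes). Of its 18 uncompressed members 13 differed upward, with a median of 0.50, where 1531 of 3855 uncompressed genes did so, with a median of -0.034. In the fit of uncompressed probe sets 8 were higher and 2 lower (4.23% and 7.44% of the 3855 genes). The 8 were Per2, Per3, Cry2, Ciart, Dbp, Tef, Hlf and Usp2. Usp2, a ubiquitin protease with strong daily rhythm in liver, was measured at 7.24, 9.17, 7.06 and 7.66 on the ethanol arrays and 9.39, 9.50, 9.24 and 9.13 on the resveratrol arrays, values that overlap, with a difference of 1.53 ± 0.39 (SE, adjusted p = 0.106 over all probe sets and 0.0228 in the fit of uncompressed probe sets). Dbp, a D-box activator, was measured at 10.44, 11.15, 10.33 and 10.05 on the ethanol arrays and 11.31, 11.57, 11.58 and 11.46 on the resveratrol arrays, with a difference of 0.99 ± 0.20 (SE, adjusted p = 0.06 over all probe sets and 0.00979 in the fit of uncompressed probe sets). The 2 lower members were Arntl and Clock, the activator pair of the clock. Arntl was measured at 7.78, 6.83, 7.18 and 7.39 on the ethanol arrays and 6.67, 6.33, 6.74 and 6.67 on the resveratrol arrays, with a difference of -0.69 ± 0.17 (SE, adjusted p = 0.0932 over all probe sets and 0.0191 in the fit of uncompressed probe sets). Ethanol array 3 stood highest of its diet for Per3, Ciart, Usp2 and Dbp and lowest for Arntl. Clock differed by -0.56 ± 0.14 (SE, adjusted p = 0.0937 over all probe sets and 0.0199 in the fit of uncompressed probe sets). Per1 (0.93 ± 0.32, SE, adjusted p = 0.205) and Nfil3, a D-box repressor (-0.49 ± 0.17, SE, adjusted p = 0.204), passed neither fit.

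**Figure D2:**
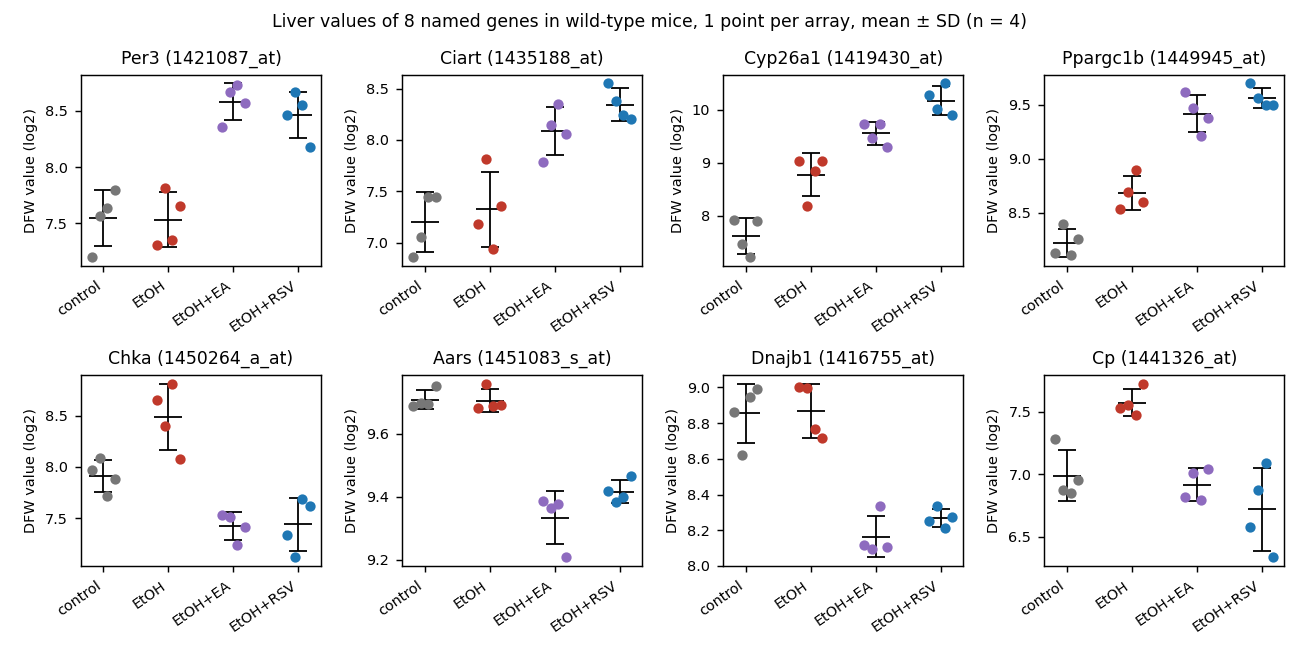
Values of 8 named genes on the 16 wild-type arrays by diet, 1 point per array, with the mean and SD of 4 arrays; the vertical axes give DFW log2 values and do not start at 0. Per3, Ciart, Cyp26a1 and Ppargc1b stand higher with resveratrol than with ethanol alone, and Chka, Aars, Dnajb1 and Cp lower, without overlap of the 2 groups.

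Cyp26a1, the retinoic acid hydroxylase that clears all-trans retinoic acid and is itself induced by it, was measured at 9.04, 8.18, 8.84 and 9.03 on the ethanol arrays and 10.28, 10.00, 10.50 and 9.89 on the resveratrol arrays. The resveratrol arrays stood above all other wild-type arrays, with a difference of 1.40 ± 0.22 (SE, adjusted p = 0.0343). Ethanol alone already stood above the control diet (7.62 ± 0.34, SD, n = 4) by 1.15 ± 0.22 (SE, adjusted p = 0.0122). Cyp26b1, the related hydroxylase, differed from the ethanol diet by 0.76 ± 0.24 (SE, adjusted p = 0.168 over all probe sets and 0.047 in the fit of uncompressed probe sets). Bco1, which cleaves beta-carotene to retinal, was measured at 7.61, 7.59, 7.55 and 7.54 on the ethanol arrays and 7.28, 7.39, 7.43 and 7.39 on the resveratrol arrays and fell by 0.20 ± 0.036 (SE, adjusted p = 0.0457). It moved in the direction opposite to that of the hydroxylases. Of 19 members of the retinoid list 1 rose and 1 fell, beside 0.242% and 0.313% of 18193 genes, and 9 of its 12 uncompressed members differed upward, beside 1531 of 3855 uncompressed genes. The letters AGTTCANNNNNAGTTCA, a direct repeat that retinoic acid receptors read, are shown for Cyp26a1 in capitals on their reverse strand, 32 bases before the start (GRCm38.p6, chr19:37697746-37697807, plus strand). They occur in 7 of the 32851 promoters (0.0213%).
Cyp26a1: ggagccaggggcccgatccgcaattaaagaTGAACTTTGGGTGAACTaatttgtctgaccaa

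Ppargc1b had the lowest adjusted p of the comparison, with a probe set of Chpt1 and an unnamed one. It encodes PGC-1 beta, a coactivator of mitochondrial and lipid genes, and was measured at 8.54, 8.69, 8.90 and 8.60 on the ethanol arrays and 9.70, 9.56, 9.50 and 9.50 on the resveratrol arrays. The spread within each diet was a small part of the step between them, a rise of 0.88 ± 0.10 (SE, adjusted p = 0.0101). It had also stood above the control diet (8.22 ± 0.13, SD, n = 4) with ethanol alone, by 0.46 ± 0.10 (SE, adjusted p = 0.0208). Of 22 members of the list of sirtuins, AMP kinase subunits and PGC-1 coactivators it was the 1 that passed over all probe sets. In the fit of uncompressed probe sets 4 of 10 were higher and none lower, beside 4.23% and 7.44% of 3855 genes. Besides Ppargc1b these were Prkag2, a regulatory subunit of AMP kinase (0.43 ± 0.10, SE, adjusted p = 0.0886 over all probe sets and 0.0187 in the fit of uncompressed probe sets), Foxo3 (0.38 ± 0.087, SE, adjusted p = 0.0842 over all probe sets and 0.018 in the fit of uncompressed probe sets) and Foxo1 (0.26 ± 0.077, SE, adjusted p = 0.149 over all probe sets and 0.0429 in the fit of uncompressed probe sets), transcription factors held back by insulin. Sirt1 was compressed, with a level of 8.10 on both diets. Ppargc1a, the sister coactivator, differed by 0.25 ± 0.14 (SE, adjusted p = 0.408).

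The largest rise was in Dclre1a, a nuclease of DNA crosslink repair, measured at 8.09, 8.09, 7.54 and 8.32 on the ethanol arrays and 9.93, 10.19, 9.16 and 9.25 on the resveratrol arrays. The groups did not overlap, and the difference was 1.62 ± 0.28 (SE, adjusted p = 0.039). The other 2 probe sets of this gene were compressed. Upp2, a liver uridine phosphorylase, was measured at 10.30, 10.52, 9.93 and 10.69 on the ethanol arrays and 11.27, 11.53, 11.17 and 11.19 on the resveratrol arrays, with a difference of 0.93 ± 0.17 (SE, adjusted p = 0.0465), and a second probe set differed by 0.83 ± 0.15 (SE, adjusted p = 0.0467). Further rises among the 15 largest were Pcsk4 (0.84 ± 0.15), a proprotein convertase, Fnip2 (0.60 ± 0.10), a partner of folliculin in AMP kinase and mTORC1 control, Ngef (0.58 ± 0.086), Sorbs3 (0.58 ± 0.10), an adhesion adaptor, Hykk (0.52 ± 0.065), the hydroxylysine kinase, and Shld1 (0.39 ± 0.052), of the shieldin complex of DNA repair. The values in brackets are differences with SE. Cpsf4l, Fchsd2 and Nhlrc2 rose by 0.48 to 0.59. Shld2, the partner of Shld1 in shieldin, fell by 0.58 ± 0.093 (SE), so the 2 subunits differed in direction.

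Phospholipid enzymes moved in both directions. Chka, choline kinase alpha, which starts phosphatidylcholine synthesis, was measured at 8.65, 8.40, 8.81 and 8.08 on the ethanol arrays and 7.33, 7.12, 7.69 and 7.62 on the resveratrol arrays. It fell by 1.05 ± 0.16 (SE, adjusted p = 0.0295), and stood at 7.44 ± 0.26 beside 7.91 ± 0.16 on the control diet (SD, n = 4). Its other 2 probe sets lay in the same direction without passing. Chpt1, which makes phosphatidylcholine in the last step of the same pathway, was measured by its called probe set at 9.13, 9.15, 9.002 and 9.21 on the ethanol arrays and 9.46, 9.46, 9.48 and 9.51 on the resveratrol arrays. The difference was 0.36 ± 0.039 (SE, adjusted p = 0.0101), and the gene's probe set of highest level differed by 0.18 ± 0.05 (SE, adjusted p = 0.126 over all probe sets and 0.039 in the fit of uncompressed probe sets). Gpcpd1, which hydrolyses glycerophosphocholine, was measured at 8.62, 8.35, 8.15 and 9.16 on the ethanol arrays and 10.29, 10.10, 9.64 and 9.23 on the resveratrol arrays. That difference, 1.25 ± 0.24 (SE, adjusted p = 0.0519 over all probe sets and 0.00843 in the fit of uncompressed probe sets), missed the threshold over all probe sets. Of the 14 members of the list measured, 1 fell and none rose over all probe sets by their representative probe set. Beside them 0.313% of 18193 genes fell and 0.242% rose.

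Single genes of cytosolic protein folding fell with resveratrol. Dnajb1, the main Hsp40 partner of Hsp70, was measured at 9.003, 8.998, 8.77 and 8.71 on the ethanol arrays and 8.25, 8.33, 8.21 and 8.28 on the resveratrol arrays and fell by 0.60 ± 0.089 (SE, adjusted p = 0.0261). Its second probe set differed by -0.27 ± 0.12 (SE, adjusted p = 0.314), a smaller step that did not pass. Bag3, an Hsp70 cochaperone of aggregate clearance, was measured at 8.12, 8.53, 8.11 and 8.44 on the ethanol arrays and 7.72, 7.75, 7.85 and 7.78 on the resveratrol arrays and fell by 0.52 ± 0.10 (SE, adjusted p = 0.0489). The 4 resveratrol values of both genes lay close together and under every ethanol value. Hspa4, an Hsp110-type exchange factor, was measured at 9.61, 9.77, 9.55 and 9.56 on the ethanol arrays and 9.27, 9.31, 9.42 and 9.32 on the resveratrol arrays and fell by 0.29 ± 0.053 (SE, adjusted p = 0.0484). Dnajb4, another Hsp40, fell by 0.43 ± 0.061 (SE, adjusted p = 0.0254) on 1 probe set, while its probe set of highest level differed by -0.19 ± 0.088 (SE, adjusted p = 0.352). Dnajb1, Bag3 and Hspa4 differed by at most 0.14 between the ethanol and control diets, without passing (adjusted p = 0.440 to 0.948). The called probe set of Dnajb4 was already lower with ethanol than on the control diet (-0.33 ± 0.061, SE, adjusted p = 0.0112).

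The list of cytosolic heat shock proteins and cochaperones had 25 members measured, of which 3 fell (Dnajb1, Bag3 and Hspa4) and none rose over all probe sets, beside 0.313% and 0.242% of 18193 genes. Of its 22 uncompressed members 19 differed downward, with a median of -0.14 beside -0.034 over all uncompressed genes, of which 1531 of 3855 differed upward. In the fit of uncompressed probe sets 4 were lower, where 7.44% of the 3855 genes were, the added member being Hspa1a, an inducible Hsp70 (-0.28 ± 0.084, SE, adjusted p = 0.162 over all probe sets and 0.0477 in the fit of uncompressed probe sets), and none higher. Not all chaperones lay low: the mitochondrial pair Hspd1 (0.078 ± 0.039, SE, adjusted p = 0.376) and Hspe1 (0.10 ± 0.036, SE, adjusted p = 0.23) differed upward without passing, and Hspa8, the constitutive Hsp70, lay near 0 (-0.02 ± 0.048, SE, adjusted p = 0.887). In the 250 bases before the RefSeq starts of Dnajb1, Bag3 and Hspa4 neither pair of heat shock units, GAANNTTC or TTCNNGAA, was found, while 1 of the 2 promoters of Dnajb4 holds TTCNNGAA 14 bases before its start. Those letters stand in 6.69% and 7.17% of promoters.

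In the endoplasmic reticulum, 18 of 21 uncompressed chaperones and disulfide isomerases differed downward (median -0.14), and none of the 23 members measured passed over all probe sets. Of all 3855 uncompressed genes 1531 differed upward, with a median of -0.034. Ero1a, an oxidase that recharges the disulfide isomerases, passed in the fit of uncompressed probe sets (-0.27 ± 0.066, SE, adjusted p = 0.102 over all probe sets and 0.0258 in the fit of uncompressed probe sets). Hspa5, the main chaperone of the compartment, differed by -0.18 ± 0.12 (SE, adjusted p = 0.49). Of 22 unfolded protein sensors and degradation factors, 1 fell: Edem3, which marks misfolded glycoproteins for removal, was measured at 9.29, 9.48, 9.41 and 9.47 on the ethanol arrays and 9.01, 9.03, 9.06 and 9.20 on the resveratrol arrays and fell by 0.34 ± 0.058 (SE, adjusted p = 0.0395). Of 17 uncompressed members of that list 16 differed downward. Of all 18193 genes 0.313% were called lower, and 7.44% of 3855 in the fit of uncompressed probe sets. The fit of uncompressed probe sets added Eif2ak3, the PERK kinase (-0.34 ± 0.077, SE, adjusted p = 0.0808 over all probe sets and 0.0177 in the fit of uncompressed probe sets), and Syvn1, the ubiquitin ligase of the pathway (-0.30 ± 0.093, SE, adjusted p = 0.165 over all probe sets and 0.0487 in the fit of uncompressed probe sets).

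Proteasome subunits lay low as a group, each by a small step. All 22 uncompressed subunits had a negative difference, with a median of -0.14, where 1531 of 3855 uncompressed genes had a positive one and the median was -0.034, and none of the 32 measured passed over all probe sets. In the fit of uncompressed probe sets 6 were lower, Psma2, Psma4, Psmb3, Psmb5, Psmc5 and Psmd1, with differences from -0.28 to -0.13, where 7.44% of 3855 genes were lower. Psmb5, the chymotrypsin-like catalytic subunit, was measured at 10.67, 10.65, 10.62 and 10.63 on the ethanol arrays and 10.42, 10.39, 10.51 and 10.58 on the resveratrol arrays. Ethanol alone had stood above the control diet for this subunit, by 0.24 ± 0.043 (SE, adjusted p = 0.00928), and with resveratrol it stood at 10.48 ± 0.087 (SD, n = 4) beside 10.40 ± 0.049 on the control diet. Subunits share array and labelling, and their differences are not independent of one another.

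**Figure D3:**
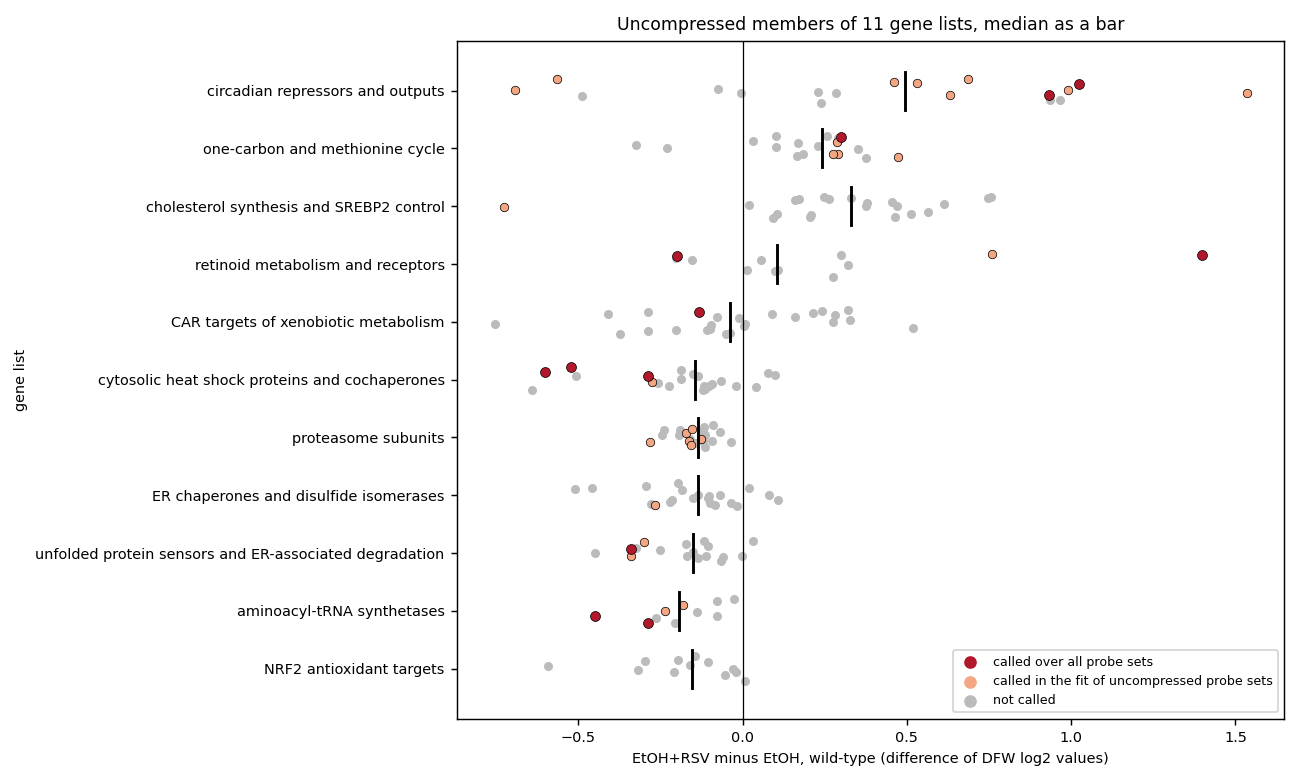
Resveratrol minus ethanol differences (horizontal axis, DFW log2 units) of the uncompressed members of 11 gene lists, 1 point per gene, with the list median as a bar; dark red points passed over all probe sets and light red points only in the fit of uncompressed probe sets. The circadian, one-carbon and cholesterol lists lie mainly to the right of 0, with medians of 0.50, 0.24 and 0.33, and the protein folding, proteasome, synthetase and antioxidant lists to the left, with medians between -0.19 and -0.14.

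Aminoacyl-tRNA synthetases, which load amino acids on transfer RNA, lay low in the same way. Aars, the alanyl enzyme, was measured at 9.68, 9.76, 9.69 and 9.69 on the ethanol arrays and 9.42, 9.38, 9.40 and 9.47 on the resveratrol arrays and fell by 0.29 ± 0.036 (SE, adjusted p = 0.0183), and its second probe set fell by 0.22 ± 0.037 (SE, adjusted p = 0.0367). Tars, the threonyl enzyme, was measured at 10.03, 9.78, 10.09 and 10.03 on the ethanol arrays and 9.47, 9.43, 9.61 and 9.62 on the resveratrol arrays and fell by 0.45 ± 0.075 (SE, adjusted p = 0.0367). Neither gene's groups overlapped. Of 19 synthetases measured 3 passed, all downward, but the third, Yars, is compressed and its difference of -0.00039 has no usable size. All 10 uncompressed members had a negative difference (median -0.19), where 1531 of 3855 uncompressed genes had a positive one. Of all 18193 genes 0.313% were called lower, and 7.44% of the 3855 in the fit of uncompressed probe sets. The fit of uncompressed probe sets added Cars (-0.24 ± 0.065, SE, adjusted p = 0.128 over all probe sets and 0.0361 in the fit of uncompressed probe sets) and Iars (-0.18 ± 0.053, SE, adjusted p = 0.149 over all probe sets and 0.0477 in the fit of uncompressed probe sets). Cars had already been lower with ethanol than on the control diet, by 0.52 ± 0.065 (SE, adjusted p = 0.00143).

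Aars and Tars share 8 letters before their starts, shown in capitals: TGATGCAA on the reverse strand, the composite element of the amino acid response read by ATF4 with its partners. They stand 112 bases before the start of Aars (GRCm38.p6, chr8:111033690-111033777, plus strand) and 15 bases before that of Tars (chr15:11399659-11399713, minus strand), and in 0.791% of promoters. ATF4 targets as a list did not lie to either side: 7 of 15 uncompressed members differed upward and 8 downward. In the fit of uncompressed probe sets Trib3 (0.74 ± 0.17, SE), Gpt2 (0.79 ± 0.24) and Shmt2 (0.29 ± 0.08) were higher and Fgf21 (-1.11 ± 0.29) lower.
Aars: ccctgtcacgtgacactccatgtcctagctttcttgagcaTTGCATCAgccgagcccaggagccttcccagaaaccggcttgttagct
Tars: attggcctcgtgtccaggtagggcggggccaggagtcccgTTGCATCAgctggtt

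Other falls were of different kinds. Tubb2a, a beta tubulin, was measured at 9.41, 9.48, 9.51 and 8.77 on the ethanol arrays and 8.13, 7.79, 8.04 and 8.46 on the resveratrol arrays. It fell by 1.19 ± 0.18 (SE, adjusted p = 0.0285), and ethanol array 5 stood lowest of the ethanol arrays. Cp, ceruloplasmin, the copper ferroxidase of plasma, was measured by its most changed probe set at 7.53, 7.55, 7.48 and 7.73 on the ethanol arrays and 6.58, 6.88, 7.09 and 6.34 on the resveratrol arrays and fell by 0.85 ± 0.15 (SE, adjusted p = 0.0395). Its probe set of highest level was measured at 12.45, 12.41, 12.49 and 12.43 on the ethanol arrays and 12.27, 12.28, 12.26 and 12.24 on the resveratrol arrays, and fell less, by 0.18 ± 0.025 (SE, adjusted p = 0.0209). Of 8 probe sets of this gene 4 fell, 1 other differed downward and 3 were compressed. Slc30a10, a manganese exporter, was measured at 7.81, 7.55, 7.64 and 7.73 on the ethanol arrays and 6.93, 6.83, 7.16 and 7.17 on the resveratrol arrays and fell by 0.66 ± 0.12 (SE, adjusted p = 0.0473), and a second probe set fell by 0.61 ± 0.095 (SE, adjusted p = 0.0322).

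Mmp14, a membrane metalloproteinase, was measured at 8.07, 8.17, 7.81 and 8.06 on the ethanol arrays and 7.49, 7.47, 7.59 and 7.63 on the resveratrol arrays and fell by 0.49 ± 0.087 (SE, adjusted p = 0.0457), while a second probe set of lower level differed by -0.17 ± 0.049 (SE, adjusted p = 0.151). Palld, palladin of actin bundles, was measured at 9.46, 9.45, 9.36 and 9.40 on the ethanol arrays and 9.10, 8.99, 8.80 and 9.03 on the resveratrol arrays and fell by 0.44 ± 0.081 (SE, adjusted p = 0.0484). Mmp14 and Palld are used by stellate and endothelial cells as well as hepatocytes, and in whole liver fewer cells of a type and less RNA per cell cannot be told apart. The 10 stellate markers summed to 81.8 to 82.8 on the ethanol arrays and to 82.1 to 83.0 on the resveratrol arrays, with none called. The 10 markers of sinusoidal endothelium summed to 85.06 to 85.27 with ethanol and to 85.30 to 85.59 with resveratrol. Those endothelial sums did not overlap, and none of their markers was called. The part of other cells in these falls was not tested. The remaining genes among the 15 largest falls, Net1, Desi2, Dtx4 and Tmem98, fell by 0.49 to 0.60.

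Sfpq, a splicing and paraspeckle protein, was measured at 8.94, 9.13, 9.02 and 9.02 on the ethanol arrays and 8.48, 8.66, 8.76 and 8.79 on the resveratrol arrays and fell by 0.36 ± 0.063 (SE, adjusted p = 0.0453). Its other 3 uncompressed probe sets differed by -0.23 to -0.017 without passing. It was the 1 member of 43 splicing and nuclear RNA-binding genes to pass over all probe sets, where 0.313% of 18193 genes were lower. Of the acute phase list Cp was likewise the 1 of 21 to pass, while fibrinogen chains Fga (-0.27 ± 0.065, SE, adjusted p = 0.0935 over all probe sets and 0.0232 in the fit of uncompressed probe sets) and Fgg (-0.17 ± 0.04, SE, adjusted p = 0.0933 over all probe sets and 0.0299 in the fit of uncompressed probe sets) were lower in the fit of uncompressed probe sets. Gnmt, the glycine methyltransferase that drains methyl groups, was measured at 13.31, 13.27, 13.27 and 13.40 on the ethanol arrays and 13.71, 13.71, 13.50 and 13.52 on the resveratrol arrays, a rise of 0.30 ± 0.056 (SE, adjusted p = 0.0485). Of 18 uncompressed members of the one-carbon list 16 differed upward (median 0.24), beside 1531 of 3855 uncompressed genes. In the fit of uncompressed probe sets 5 were higher, Gnmt, Ahcy, Bhmt, Shmt1 and Shmt2, with differences of 0.27 to 0.47, and none lower. Of the 3855 genes 4.23% were higher and 7.44% lower in that fit. Bhmt, the betaine methyltransferase, was measured at 13.51, 13.24, 13.18 and 13.61 on the ethanol arrays and 14.17, 14.01, 13.68 and 13.57 on the resveratrol arrays, values that overlap.

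Lipid genes named by the study mostly did not pass. The study chose its genes by the rank product on values of another normalization (qFARMS), so its threshold is unlike the one used here. Its sets of genes reversed by the polyphenols took a change with either compound. A gene it names thus need not have been called for resveratrol. Cholesterol synthesis leaned upward, with 20 of 21 uncompressed members and a median of 0.33, beside 1531 of 3855 uncompressed genes. None of the 23 measured passed over all probe sets. Hmgcs1 (0.46 ± 0.31, SE, adjusted p = 0.525), Sqle (0.47 ± 0.36, SE, adjusted p = 0.588) and Msmo1 (0.75 ± 0.34, SE, adjusted p = 0.33), enzymes of the pathway, had standard errors of 0.31 to 0.36. The exception was Insig2, an anchor that holds back SREBP processing, measured at 11.25, 10.71, 11.37 and 10.84 on the ethanol arrays and 10.43, 10.16, 10.10 and 10.58 on the resveratrol arrays. It differed by -0.73 ± 0.18 (SE, adjusted p = 0.108 over all probe sets and 0.024 in the fit of uncompressed probe sets). De novo lipogenesis, bile acid synthesis, fatty acid oxidation and PPAR alpha targets had no call over all probe sets, with medians of 0.093, 0.0064, -0.049 and -0.12 over uncompressed members. Dgat2, the last enzyme of triglyceride synthesis (0.21 ± 0.051, SE, adjusted p = 0.0924 over all probe sets and 0.0251 in the fit of uncompressed probe sets), and Fads2, the delta-6 desaturase (0.25 ± 0.078, SE, adjusted p = 0.164 over all probe sets and 0.0497 in the fit of uncompressed probe sets), were higher in the fit of uncompressed probe sets.

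Targets of CAR did not lean to either side: 11 of 25 uncompressed members differed upward and 14 downward. Cyp3a11, the main Cyp3a enzyme of mouse liver, was measured at 13.99, 13.93, 13.94 and 13.90 on the ethanol arrays and 13.78, 13.78, 13.84 and 13.82 on the resveratrol arrays and fell by 0.13 ± 0.024 (SE, adjusted p = 0.0457). Ethanol alone had raised it above the control diet by 0.33 ± 0.024 (SE, adjusted p = 4.17e-05), and with resveratrol it stood between the 2. Cyp2b10, the classical CAR target, differed by 0.27 ± 0.42 (SE, adjusted p = 0.811). Of 12 uncompressed NRF2 targets 11 differed downward (median -0.15), where 1531 of 3855 uncompressed genes differed upward. These targets had no call in either fit, Gclc, of glutathione synthesis, lying lowest at -0.59 ± 0.20 (SE, adjusted p = 0.196). Genes of ethanol and acetaldehyde metabolism had no call in either fit, Adh1 differing by -0.046 ± 0.043 (SE, adjusted p = 0.662). Mt2, a metallothionein, was measured at 8.03, 9.77, 9.68 and 9.74 on the ethanol arrays and 10.73, 11.10, 10.62 and 11.45 on the resveratrol arrays, with a difference of 1.67 ± 0.45 (SE, adjusted p = 0.121 over all probe sets and 0.0272 in the fit of uncompressed probe sets), and Mt1 differed by 1.05 ± 0.37 (SE, adjusted p = 0.216).

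The other wild-type comparisons share arrays with the main one, so their values are set side by side and no overlap is given. Ethanol against the control diet called 2501 probe sets (5.55%), and resveratrol against the control diet 8885 (19.7%). Dclre1a, Upp2, Ngef, Hykk and Shld1 lay within 0.17 of the control diet with ethanol alone (adjusted p = 0.603 to 0.995) and rose above it with resveratrol by 1.72 ± 0.28, 1.10 ± 0.17, 0.58 ± 0.086, 0.58 ± 0.065 and 0.39 ± 0.052 (SE). Tmem98 and the most changed probe set of Cp had risen with ethanol, by 0.40 ± 0.08 (SE, adjusted p = 0.0149) and 0.58 ± 0.15 (SE, adjusted p = 0.0395), and with resveratrol differed from the control diet by -0.089 ± 0.08 and -0.27 ± 0.15. Shld2 and Mmp14 had already fallen with ethanol and lay lower again with resveratrol: Mmp14 was measured at 8.53, 8.44, 8.44 and 8.38 on the control arrays. Resveratrol against ellagic acid, which uses no ethanol array, gave 11 calls over all probe sets (0.0244%), 8 higher (0.0178%) and 3 lower (0.00666%) with resveratrol. Sfpq passed here too: it stood at 8.15 ± 0.076 with ellagic acid and 8.67 ± 0.14 with resveratrol (SD, n = 4), a difference of 0.52 ± 0.063 (SE, adjusted p = 0.0134). Rbm14, another paraspeckle protein, gave 4 of the 8 calls higher with resveratrol and is named after its values were seen. The smallest of those 4 differences, 0.00056, was of a compressed probe set, as were others among the 11 calls. The strongest probe set of Rbm14 stood at a mean of 8.60 with ethanol, 7.79 with ellagic acid and 8.45 with resveratrol. Its resveratrol minus ellagic acid difference was 0.66 ± 0.048 (SE, adjusted p = 0.000173). Of the 109 called uncompressed probe sets 1, that of Sfpq, was called against ellagic acid. Means with ellagic acid and with resveratrol were 8.58 and 8.46 for Per3, 9.67 and 9.63 for Dclre1a, and 8.16 and 8.27 for Dnajb1. The rises and falls above are thus not shown to be particular to resveratrol. Cyp26a1 differed between the 2 polyphenols by 0.62 ± 0.22 (SE, adjusted p = 0.491) and Chka by 0.017 ± 0.16 (SE, adjusted p = 0.985), and a p above the threshold does not show that the compounds act alike.

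In CAR-deficient mice the same addition of resveratrol gave no call (limma, 0 of 45011, with 2459, or 5.46%, at an unadjusted p under 0.05), and the lowest adjusted p among the 109 was 0.867. Of the 109, 101 were uncompressed there too, and 89 of these (88.1%) differed in the direction of the wild-type mice, beside 3791 of 5735 (66.1%) of all probe sets uncompressed in both genotypes. Their median absolute difference was 0.34 in wild-type and 0.18 in CAR-deficient mice, beside 0.12 and 0.13 over all 5735. The 101 were chosen by their wild-type differences, which raises the wild-type median. A weaker effect without CAR therefore cannot be read from these medians. Levels are not compared between genotypes, which were summarised apart. Per3 was measured at 8.27, 9.12 and 7.90 on the CAR-deficient ethanol arrays and 9.51, 9.85 and 8.71 on the resveratrol arrays, a difference of 0.93 ± 0.37 (SE). Cp by its most changed probe set differed there by -0.85 ± 0.43, Net1 by -0.56 ± 0.18 and Shld2 by -0.62 ± 0.22. These lie within 1 SE of the wild-type differences.

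For Dnajb1 and Bag3 the CAR-deficient difference had the other sign. Dnajb1 was measured at 9.05, 9.39 and 8.83 with ethanol and 8.94, 8.81 and 9.94 with resveratrol, a difference of 0.14 ± 0.29 (SE). Bag3 differed by 0.27 ± 0.20. The difference of the resveratrol effect between genotypes was tested over all 28 arrays and none of 45011 probe sets passed, with 3179 (7.06%) at an unadjusted p under 0.05. That test gave -0.74 ± 0.27 (SE, adjusted p = 0.528) for Dnajb1 and -0.79 ± 0.21 (SE, adjusted p = 0.315) for Bag3. Cyp26a1 differed by 0.11 ± 0.68 in CAR-deficient mice, with an SE larger than the difference, and the genotype test gave 1.28 ± 0.63 (SE, adjusted p = 0.724). Leaving out 1 of the CAR-deficient ethanol or resveratrol arrays at a time brought this test from 0 to between 4 and 139 calls, the most without ethanol array 2. The CAR-deficient groups of 3 limit what can be said of a difference between the genotypes.

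**Figure D4:**
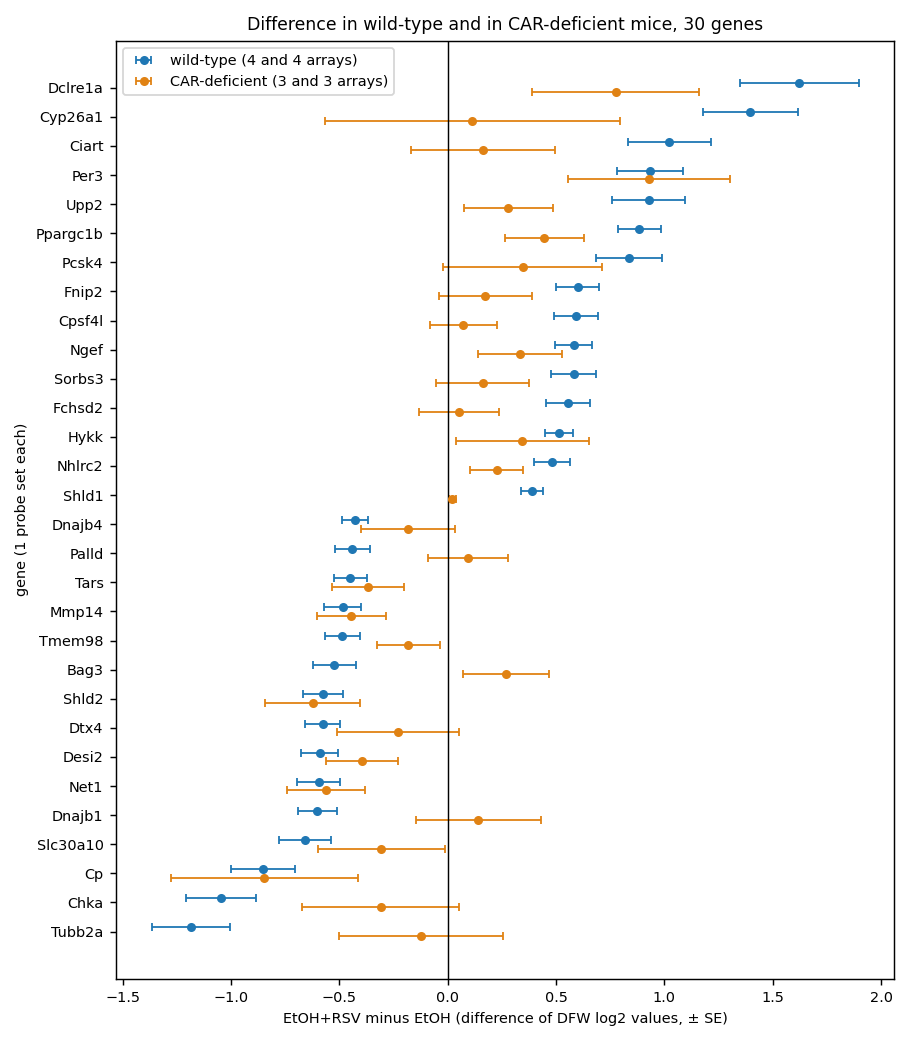
Resveratrol minus ethanol differences with SE (horizontal axis, DFW log2 units) of the 15 largest called rises and 15 largest called falls of the wild-type comparison, in wild-type (4 and 4 arrays) and CAR-deficient mice (3 and 3 arrays). The wild-type points were chosen for their size; of the CAR-deficient points Dnajb1, Bag3 and Palld lie on the other side of 0, while Per3, Cp, Net1 and Shld2 lie near the wild-type points.

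Single arrays decided how many probe sets passed. Over all probe sets, leaving out resveratrol array 2 ended all 164 calls (0 called, lowest adjusted p 0.0525), and leaving out resveratrol array 1 gave 7, of which 5 were among the 164. These 7 included Ppargc1b, Hykk and Chpt1, and also Gys2, the liver glycogen synthase, which was not called with all arrays. Without resveratrol array 4, in contrast, 569 were called, of which 154 were among the 164, and without ethanol array 5, the array that correlated with the resveratrol arrays, 329 were called, 127 of them among the 164. Leaving out resveratrol array 3 gave 143. Leaving out ethanol array 1, 3 or 4 gave 35, 78 and 43. Arrays of diets outside the comparison, which enter through the shared estimate of spread, gave 51 to 142 for control and 53 to 81 for ellagic acid. Fitting the 8 arrays of the 2 diets alone gave 1 call, a compressed probe set without a gene name that was not among the 164.

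**Figure D5:**
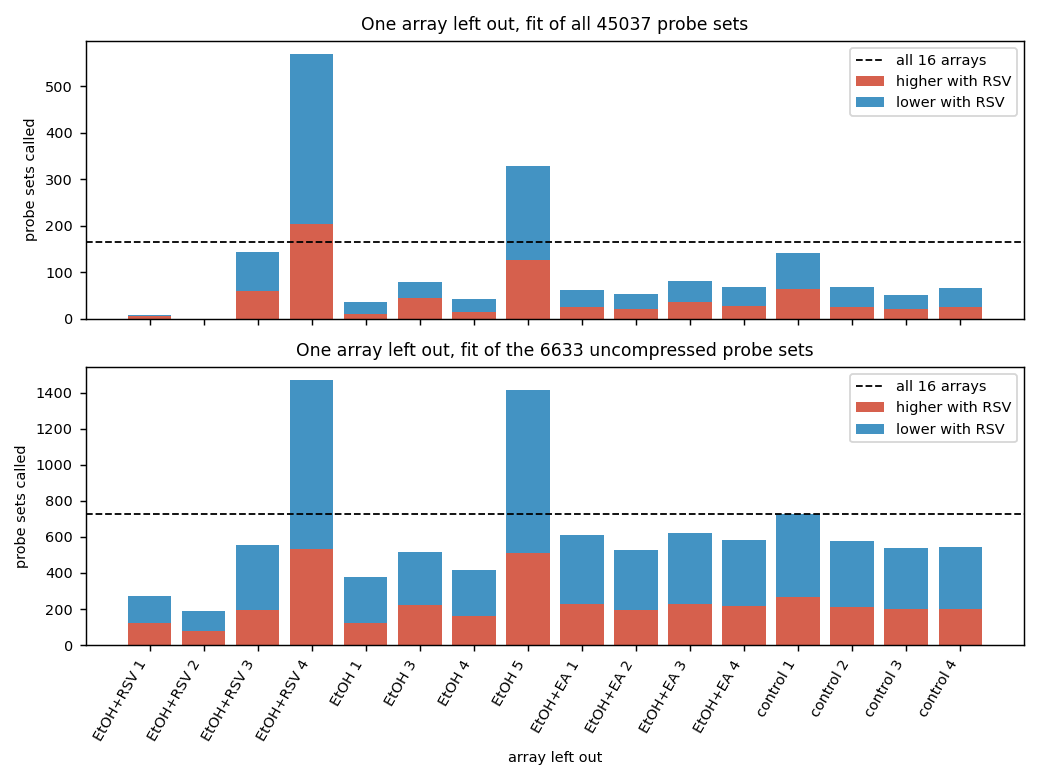
Number of probe sets called (vertical axis) when the array named below is left out, over all probe sets (top) and over uncompressed probe sets (bottom), split into higher and lower with resveratrol, with the count from all 16 arrays as a dashed line. Counts run from 0 to 569 at the top and from 188 to 1467 at the bottom, lowest without resveratrol array 2 and highest without resveratrol array 4 in both.

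The sizes of the differences depended on single arrays far less than the calls. All 109 uncompressed probe sets had the same direction in each of the 16 fits without 1 array. That was fixed in advance, because their 4 and 4 values do not overlap. The difference of Ppargc1b ran from 0.84 to 0.96, that of Cyp26a1 from 1.20 to 1.49, that of Per3 from 0.86 to 1.03, that of Dnajb1 from -0.65 to -0.56 and that of Chka from -1.18 to -0.94. Ppargc1b and Hykk passed in 15 of the 16 fits, Aars, Shld1 and the tight probe set of Cp in 14, Desi2 and Dnajb4 in 13, Dnajb1, Chka, Ngef and Dtx4 in 12, and Cyp26a1 and Tubb2a in 11. Per3 passed in 7, Dclre1a in 6, Gnmt, Upp2, Ciart and Sfpq in 3, Bag3 in 2 and Slc30a10 in 1. Only 8 of these fits left out an ethanol or resveratrol array. Over those 8, Ppargc1b and Hykk passed in 7, Aars, Shld1 and the same probe set of Cp in 6, and Desi2 and Dnajb4 in 5. Dnajb1, Chka, Ngef, Dtx4 and Cyp26a1 passed in 4 of them, and Tubb2a, Per3 and Dclre1a in 3. Restricting the fit to uncompressed probe sets raised the calls to 727 (11%), 262 higher (3.95%) and 465 lower (7.01%), 107 of the 109 among them. There the fits without 1 array called 188 to 1467. Of the 727, 172 passed in all 16 of those fits, 74 higher and 98 lower, and of the 109, 97 did.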

How the data were processed

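Values on a log2 scale were deposited by the authors, who summarised the Affymetrix mouse genome array's probe sets by Distribution Free Weighting in R with Bioconductor, separately for the 2 genotypes, from liver RNA of 1 mouse per array. The values were used as deposited, apart from the alternatives. Of 45101 probe sets 64 Affymetrix controls were set aside. Groups and replicate numbers came from the sample titles, and the wild-type ethanol arrays are numbered 1, 3, 4 and 5; array values in the text follow that order.

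Diets were compared by limma 3.58.1 (lmFit and eBayes, all 16 wild-type arrays in 1 fit) in R 4.3.3, with Benjamini and Hochberg adjustment and a threshold of 0.05. The effects in both genotypes were compared as an interaction over 28 arrays. For each gene, the probe set with the highest mean over the wild-type arrays was taken, out of those to which the platform annotation gives 1 gene (34945 probe sets, 18193 genes with wild-type values). Named genes are the 15 rises and 15 falls of largest difference among called, uncompressed, non-overlapping probe sets, members of 46 functional gene lists that passed, and genes named by the study. List members that passed only in the fit of uncompressed probe sets are named beside them. The members and lists were chosen with earlier results of these data known, and the printed promoters after the letters had been searched in 11 genes. Promoters are those of RefSeq on GRCm38.p6, searched in the 250 bases before the start by Python 3.11.15. The code was tested on simulated data.

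The alternatives were each array left out, the 2 diets alone, other normalizations and filters, no moderation or a trend with robust moderation, array weights, a block for the replicate number, and the rank product at FDR 0.05 and 0.025. Leave-one-out fits of uncompressed probe sets, and the 2 diets with those probe sets alone, were added after seeing the data. In groups of 4 the exact permutation test over samples cannot give a two-sided p under 0.0286, so single genes rest on limma.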

Additional observations from a re-analysis of the deposited data

Results flagged for a closer look

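Groups of 4 arrays were searched for a single array far from the other 3, by the gap to its neighbour as a share of the group's range (Dixon's test at 95%). Of 184 groups tested, over the ethanol and resveratrol arrays of the named genes, 10 had such an array, and chance gives about 1 in 20. Ethanol array 5 was the lowest of its diet for Fnip2 (0.944), Tubb2a (0.862) and Net1 (0.909) and the highest for Cps1 (0.86). Ethanol array 3 was the highest for Aars (0.89) and the lowest for Eif2ak3 (0.845) and Cyp26b1 (0.89). Ethanol array 1 was the lowest for Mt2 (0.951), at 8.03 where the next array stood at 9.68. Resveratrol array 4 was the highest of its diet for Psmc5 (0.854) and the lowest for Fads2 (0.866). Over these 10 the array that stood apart was an ethanol array in 8.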

How the results depend on the processing

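The number of calls depended on the processing. The 109 uncompressed probe sets had the same direction in each limma alternative, but their direction could hardly turn in most of these. Filters, moderation and leaving out other diets do not change a difference, and the values of the 109 do not overlap. Of the 109, 102 were also called by the rank product at FDR 0.05. The 70 higher and 94 lower calls became 1 and 0 with the 2 diets alone, 0 and 0 with the 2 diets and uncompressed probe sets, 1217 and 211 with quantile normalization, 22 and 41 with median centring, 137 and 238 above the median level, 262 and 465 with uncompressed probe sets, 40 and 54 without moderation, 38 and 38 with array weights, 43 and 62 with a difference of at least 0.1, and 861 and 1093 by the rank product at FDR 0.05. Leaving out each array gave 0 to 204 higher and 0 to 365 lower, and in the fit of uncompressed probe sets 78 to 533 and 110 to 934. The titles do not say whether same-numbered arrays share more than a number. Their residuals correlated at 0.077, 0.021 and 0.38 for numbers 1, 3 and 4, and not every array correlated best with its own number. With the replicate block the calls were 32 and 53, of which 29 were among the 109. The block moved the genotype test from 0 to 2 higher and 2 lower, ethanol against control to 572 and 942, and resveratrol against ellagic acid to 4 and 0. It left 0 calls in CAR-deficient mice. Leaving out arrays gave 0 to 77 higher and 0 to 62 lower in the genotype test, 4 to 10 and 0 to 5 against ellagic acid, 473 to 920 and 821 to 1292 in ethanol against control, 2485 to 4487 and 3221 to 4699 in resveratrol against control, and 0 in CAR-deficient mice. Quantile normalization gave 5 and 1 against ellagic acid, 11768 and 3466 in ethanol against control and 17263 and 7736 in resveratrol against control. Uncompressed probe sets alone gave 622 higher in ethanol against control, and 1099 and 2407 in resveratrol against control. Yars, compressed, turned to 0.011 with quantile normalization and 0.00018 with median centring. The cause of these shifts was not tested.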

Other observations

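Other liver pathways showed smaller shifts with resveratrol. For reference, 1531 of all 3855 uncompressed genes differed upward. In the fit of uncompressed probe sets 4.23% of these genes were higher and 7.44% lower. Of the 9 urea cycle genes 8 differed upward, with a median of 0.084, and in the fit of uncompressed probe sets Cps1, which fixes ammonia and also stood among the hepatocyte markers, and Asl, which releases arginine, were higher, by 0.21 ± 0.047 and 0.34 ± 0.11 (SE), while Glud1, glutamate dehydrogenase, was lower by 0.24 ± 0.071. Their 4 and 4 values overlapped. Of the 13 uncompressed genes from tryptophan to NAD 10 differed upward (median 0.14) with none called in either fit. Gys2, the liver glycogen synthase, was higher by 0.49 ± 0.093 (SE) without overlap, with an adjusted p of 0.0519 over all probe sets. Tnfsf10, an interferon-induced death ligand, differed by 0.80 ± 0.18 (SE) and was the 1 of 8 uncompressed interferon-stimulated genes to pass in the fit of uncompressed probe sets. Aco1, the cytosolic aconitase that senses iron, differed by 0.19 ± 0.043 (SE) and was the 1 of 10 genes of the citrate cycle list to do so. Translation factors leaned downward, 13 of 15, with Eif2s2 (-0.29 ± 0.059) and Eif4e (-0.17 ± 0.048) lower in that fit. None of these genes passed over all probe sets.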
